A study of Homo sapiens with 8 samples.

Results

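The genes described here encode collagens, laminins, integrins and lysyl oxidases. They were chosen by gene symbol in the platform annotation, as COL, LAMA, LAMB, LAMC, ITGA or ITGB followed by a chain or subunit code, and LOX or LOXL. This gave 108 probes for 74 genes, out of 22011 probes and 15550 named genes on the array. Of these, 59 probes stood for 39 collagen genes, 12 for 9 laminin genes, 31 for 21 integrin genes and 6 for 5 lysyl oxidase genes. Integrin-binding proteins such as ITGB1BP1 and ITGB3BP, and ITGBL1, which is not an integrin subunit, were left out of the set.

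Collagens are triple helices of 3 chains that form the fibrils and networks of the extracellular matrix. Type IV collagen and the laminins, each a trimer of an alpha, a beta and a gamma chain, build the basement membrane under epithelia such as that of the airway and alveolus. Integrins are heterodimers of an alpha and a beta subunit that bind these proteins at the cell surface. Lysyl oxidases are secreted copper enzymes that cross-link collagen and elastin.

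RNA was taken from A549, an established line from a human lung adenocarcinoma, and read on an Illumina expression BeadChip, on which many beads carry the same probe. All 8 arrays are of cells with a short hairpin RNA against GLP, a histone methyltransferase encoded by EHMT1 that acts as a coregulator of the glucocorticoid receptor. A first group of 4 arrays is labelled 0 h and a second group of 4 is labelled 24 h of 100 nM dexamethasone, a synthetic glucocorticoid. Before that, cells had grown in medium without phenol red and with charcoal-stripped serum. The hairpin's sequence, whether the cells are 1 clone, whether replicates are separate cultures and what the 0 h cells received are given by none of the labels. If replicates share a culture, the p-values cover technical spread only. There is no 24 h array without hormone and none without the hairpin here, so the time in culture and the hormone cannot be told apart.

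Levels are normalized log2 intensities, a difference is 24 h minus 0 h on that scale, and a probe counted as detected on an array where its detection p-value was under 0.05. A gene was tested through its brightest probe if that probe was detected on at least 4 of the 8 arrays. It was called higher or lower where limma's adjusted p, over all 14533 tested probes of the array, was under 0.05. Per array, 13897 to 14797 probes were detected, and median intensity ran from 137 to 273. Replicates 1 and 2 lay on slide 1, and replicates 3 and 4 on slide 2. Of 10 markers of the A549 line, 10 were tested, and KRT8, KRT18 and CPS1 were called higher and 0 lower. At an unadjusted p under 0.05, 4 were higher and 2 lower, where 11% and 11.9% of all tested genes were. The 2 lower ones were ALDH3A1 at -0.31 and NQO1 at -0.28, and KRT19, at -0.46, was called lower with the replicate block (adjusted p = 0.0353). Of 8 fibroblast markers, FAP, PDGFRB and PDPN were detected on no array. DCN, a matrix proteoglycan, was the 1 marker called, at least 2.98-fold higher on the background-corrected scale used here. No 0 h array detected it, so it passed the filter through its 24 h arrays alone. The other tested ones, FBLN1, PDGFRA and THY1, differed by 0.33, -0.24 and -0.35 and did not pass, and the median of the 4 was 0.05. The summed level of the 4 tested fibroblast markers ran from 1810 to 2520 at 0 h and from 2500 to 2890 at 24 h (linear scale), of which the bright FBLN1 probe made up the most. Limma called 0 of 4 tested endothelial and 0 of 3 tested leukocyte markers, with 0 and 1 at an unadjusted p under 0.05 and 0 of each with the replicate block. CDH5, CLDN5, TEK and VWF, and CD2, CD3E and PTPRC, were detected on no array. The part of these markers in the results below was not tested.

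Of the 74 genes, 17 were detected on no array, 6 were detected on some arrays but too few to be tested, and 51 were tested. Limma called 9 of the 51 higher (17.6%) and 2 lower (3.92%), where 4.72% and 5.34% of all 10964 tested genes were called. The genes called higher were COL4A3, COL4A4, COL4A6, LAMB2, LAMB3, ITGA5, ITGA10, ITGB4 and LOX, and those called lower were COL4A1 and COL1A1. LOX passed the filter through its 24 h arrays alone, so its count among the called genes follows in part from the filter. With the replicate number as a block, 12 members were called higher and 4 lower, where 7.99% and 8.98% of all genes were. The median difference of the 51 genes was 0.05, against -0.01 over all tested genes. The levels at 0 h and 24 h lay wholly apart in 14 of the 51 (27.5%), against 17.4% of all tested genes, with 13 of them higher (all genes 8.26%) and 1 lower (all genes 9.1%). For 8 genes more than 1 probe was tested, and in each of them the probes had the same call.

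**Figure D1:**
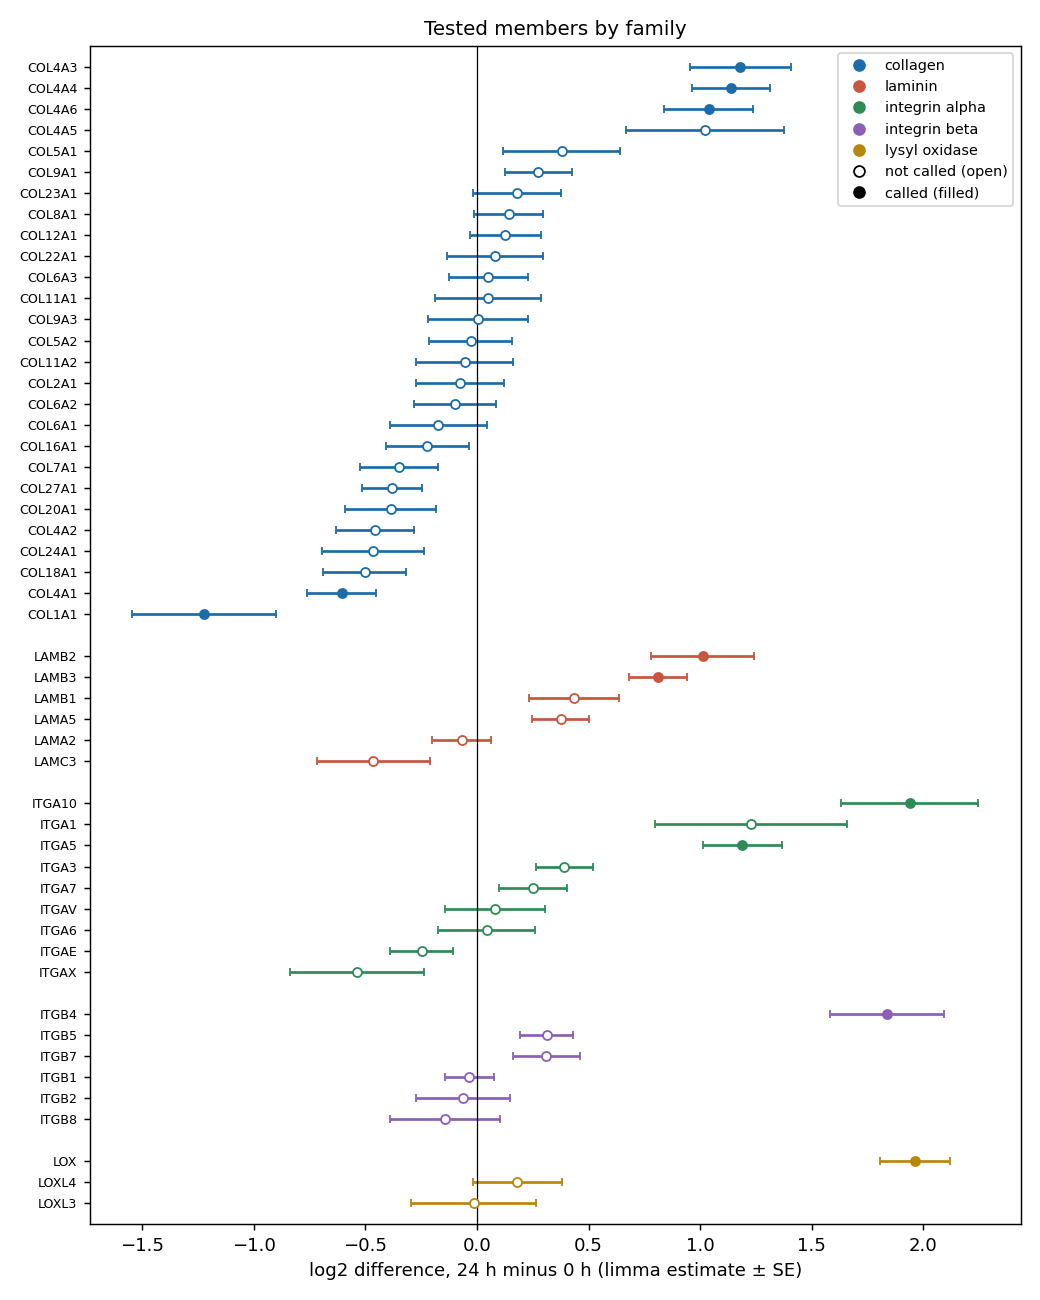
The x axis is the log2 difference, 24 h minus 0 h, with the limma standard error as bars, for each of the 51 tested genes through its brightest probe (rows), coloured by family. Filled points passed an adjusted p of 0.05. The filled points are 9 to the right of 0 and 2, COL4A1 and COL1A1, to the left.

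Among collagens, 3 of 27 tested genes were called higher and 2 lower (11.1% and 7.41%, all genes 4.72% and 5.34%). Since RNA came from whole cultures, fewer cells that express a gene and less of its RNA per cell cannot be told apart. The type IV chains of the basement membrane went both ways. COL4A3, COL4A4 and COL4A6 rose 2.27-fold, 2.20-fold and 2.05-fold, while COL4A1 was 1.52-fold lower at 24 h. In the human genome the 6 chains lie in 3 pairs, COL4A1 with COL4A2, COL4A3 with COL4A4 and COL4A5 with COL4A6, each pair head to head and transcribed away from a common stretch of DNA.

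The upstream stretches of the 3 pairs are shown because both genes of a pair had differences of the same sign. Of these genes COL4A2 and COL4A5 did not pass limma (adjusted p = 0.141 and 0.107). A link between the shared stretches and the differences was not tested. Each line holds 1 promoter window of a gene, from 250 bases before to 50 bases after its start, on the gene's own strand, from RefSeq (GRCh38.p14). Capitals mark the bases that also lie in the window of the partner gene, which reads them on the other strand.
COL4A1: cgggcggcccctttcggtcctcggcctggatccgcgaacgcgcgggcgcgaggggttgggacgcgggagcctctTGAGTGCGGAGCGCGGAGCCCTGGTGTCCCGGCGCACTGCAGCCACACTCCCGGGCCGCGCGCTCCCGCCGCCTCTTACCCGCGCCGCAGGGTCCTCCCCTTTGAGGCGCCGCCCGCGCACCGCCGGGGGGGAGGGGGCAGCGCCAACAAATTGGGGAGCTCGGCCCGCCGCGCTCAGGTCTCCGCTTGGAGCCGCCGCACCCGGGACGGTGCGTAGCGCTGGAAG
COL4A3: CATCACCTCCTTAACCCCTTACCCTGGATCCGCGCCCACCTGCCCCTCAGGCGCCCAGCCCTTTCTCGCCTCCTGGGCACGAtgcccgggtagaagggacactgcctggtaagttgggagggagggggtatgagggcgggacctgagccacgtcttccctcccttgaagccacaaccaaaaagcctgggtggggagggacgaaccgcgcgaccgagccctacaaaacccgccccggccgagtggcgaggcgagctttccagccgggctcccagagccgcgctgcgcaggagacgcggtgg
COL4A6: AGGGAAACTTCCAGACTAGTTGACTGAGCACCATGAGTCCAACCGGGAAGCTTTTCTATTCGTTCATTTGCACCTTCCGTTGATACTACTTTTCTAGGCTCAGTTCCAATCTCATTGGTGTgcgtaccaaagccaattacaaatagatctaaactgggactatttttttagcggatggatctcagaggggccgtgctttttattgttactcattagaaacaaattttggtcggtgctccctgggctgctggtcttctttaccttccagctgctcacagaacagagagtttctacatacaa
The COL4A1 window is chr13:110307108-110307407 on the minus strand. It shares 226 bases with the window of COL4A2, and the 2 starts lie 127 bases apart. The COL4A3 window is chr2:227164374-227164673 on the plus strand, shares 82 bases with that of COL4A4, and the starts are 419 bases apart. The COL4A6 window is chrX:108439409-108439708 on the minus strand, the nearer to COL4A5 of 2 windows listed for the gene. It shares 121 bases with that of COL4A5, and the starts are 380 bases apart. The 3 windows differ in composition, with 76.7%, 67.7% and 43.7% G and C and with 45, 24 and 7 CG dinucleotides. The motif of a glucocorticoid receptor element, searched as GNACA and TGTNC with 3 free bases between, reads the same on both strands. It was in 0 of 75 windows of the 53 members that have one, and in 0.39% of all 35116 windows, so these letters are not in the windows searched.

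COL4A3, a chain found in alveolar and glomerular basement membranes, read 9.05, 8.95, 9.01 and 7.99 at 0 h (replicates 1 to 4, as in all such lists) and 9.85, 9.85, 10.06 and 9.95 at 24 h. All 24 h arrays lay above all 0 h arrays, and 0 h replicate 4 was the low one. The difference was 1.18 ± 0.22 (SE, adjusted p = 0.00809). Its dimmer probe, detected on 3 of 4 arrays at 0 h, differed by 1.17 ± 0.24 (adjusted p = 0.013). COL4A4, which joins COL4A3 and COL4A5 in the same trimer, read 7.24, 7.40, 7.68 and 6.93 at 0 h and 8.21, 8.57, 8.63 and 8.39 at 24 h. Its arrays did not overlap, and the difference was 1.14 ± 0.17 (adjusted p = 0.00258).

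COL4A6, a chain of the basement membranes of skin and smooth muscle, read 11.12, 11.32, 10.88 and 10.62 at 0 h and 12.01, 12.24, 12.27 and 11.57 at 24 h. Again every 24 h array was above every 0 h array, with a difference of 1.04 ± 0.20 (adjusted p = 0.00836). Its partner COL4A5 read 10.15, 9.98, 8.65 and 8.83 at 0 h and 10.65, 10.82, 10.39 and 9.83 at 24 h. The 0 h arrays of slide 1 were high and those of slide 2 low, so the groups overlapped. The COL4A5 difference of 1.02 ± 0.35 failed the test (adjusted p = 0.107) but passed with the replicate block (adjusted p = 0.0154), and was higher at 24 h in 4 of 4 pairs.

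COL4A1, the chain that forms most basement membranes together with COL4A2, read 10.53, 11.11, 10.96 and 10.62 at 0 h and 10.16, 10.22, 10.32 and 10.10 at 24 h. Each 24 h array was below each 0 h array. The difference was -0.61 ± 0.15 (adjusted p = 0.0333). The call was lost without any 1 array other than 0 h replicate 1 or 4 (adjusted p = 0.0612 to 0.0924). COL4A2 read 8.25, 8.42, 8.94 and 8.83 at 0 h and 7.995, 8.05, 8.32 and 8.25 at 24 h. The groups overlapped, yet each 24 h array was below its own pair. Its difference of -0.46 ± 0.17 did not pass (adjusted p = 0.141) and passed with the block (adjusted p = 0.03).

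**Figure D2:**
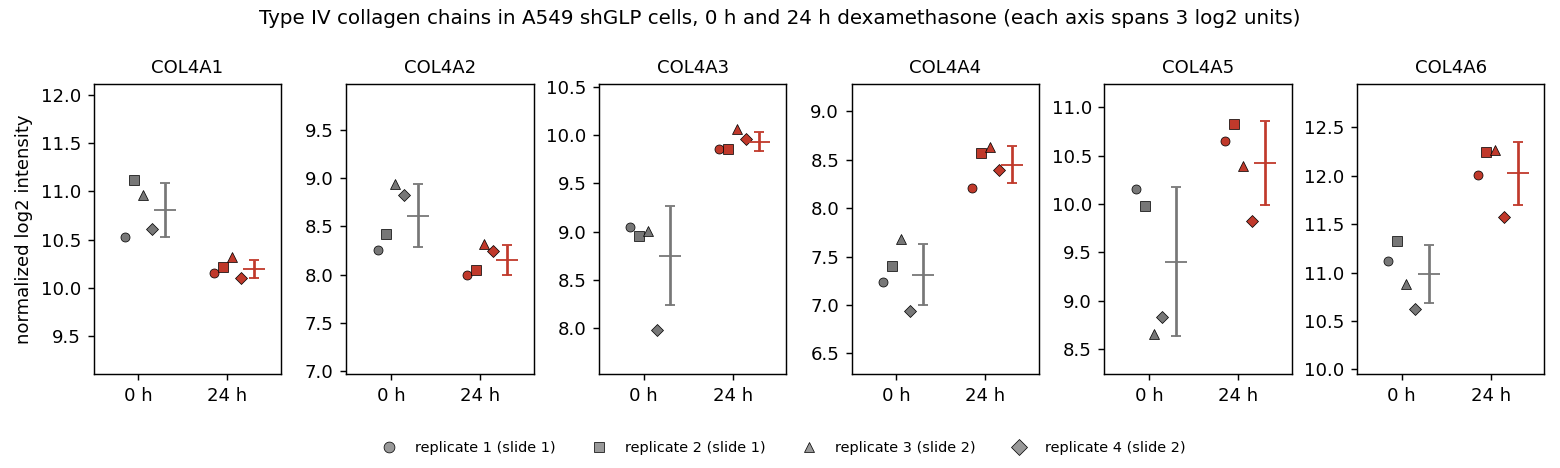
The y axis is normalized log2 intensity of the 6 type IV collagen chains at 0 h (grey) and 24 h (red), each point 1 array with its replicate as a symbol, and the bar the mean ± SD of 4 arrays. Panels have separate axes of the same span, since levels of different probes are not comparable. COL4A3, COL4A4, COL4A5 and COL4A6 lie higher at 24 h and COL4A1 and COL4A2 lower.

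Among fibrillar collagens, which form the fibres of connective tissue, 1 of 8 tested genes was called, and lower (all genes 5.34% lower). COL1A1, the major chain of type I collagen, read 8.09, 7.59, 8.24 and 6.55 at 0 h and 6.30, 6.29, 6.74 and 6.26 at 24 h. The groups overlapped because 0 h replicate 4 lay among the 24 h arrays. The difference was -1.22 ± 0.32 (adjusted p = 0.0385), at -1.55 on slide 1 and -0.90 on slide 2. Leaving out any array but 0 h replicate 4 ended the call (adjusted p = 0.0561 to 0.0945). With no background correction the difference was -0.74, and with no filter on dim probes it did not pass. COL1A2, the other chain of type I, and COL3A1 were detected on no array. COL5A1 and COL5A2, which join fibrils and set their diameter, differed by 0.38 ± 0.26 (adjusted p = 0.464) and by -0.03 ± 0.18 (adjusted p = 0.953). The 95% interval of COL5A2 ran from -0.44 to 0.38.

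None of the 13 other tested collagens was called by limma (all genes 10.1%), with 1 lower at an unadjusted p under 0.05 (all genes 11.9%). That gene, COL18A1, whose end is cleaved to endostatin, differed by -0.50 ± 0.19 (adjusted p = 0.133) and passed with the replicate block (adjusted p = 0.0242). COL7A1, which forms the anchoring fibrils under skin and mucosa, differed by -0.35 ± 0.17 (adjusted p = 0.273). The changes of the type VI genes COL6A1, COL6A2 and COL6A3, which form beaded filaments, were -0.17, -0.10 and 0.05 and did not pass. Over all 22 collagens not called, differences ran from -0.50 (COL18A1) to 1.02 (COL4A5). The median of the 27 tested collagens was -0.03, at -0.27 on slide 1 and 0.18 on slide 2. Of the 27, 12 had opposite signs on the slides. None of them was called, which follows largely from calling genes on both slides together. COL10A1, COL15A1, COL19A1, COL25A1, COL5A3, COL8A2 and COL9A2 were also detected on no array.

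Of 6 tested laminin chains, 2 beta chains were called higher (33.3%, all genes 4.72%), and the median difference was 0.41. Limma called 0 lower (all genes 5.34%), with 0 at an unadjusted p under 0.05 (all genes 11.9%) and 0 with the replicate block (all genes 8.98%). So few genes cannot show a lack of lower calls. LAMB3, the beta chain of the laminin that anchors epithelia through hemidesmosomes, read 9.68, 9.43, 9.59 and 9.58 at 0 h and 10.49, 10.14, 10.43 and 10.47 at 24 h. The groups lay apart, and LAMB3 rose 1.75-fold, a difference of 0.81 ± 0.13 (adjusted p = 0.00312). LAMB2, a beta chain known from kidney and neuromuscular basement membranes, read 7.87, 8.71, 8.62 and 8.54 at 0 h and 9.17, 9.11, 9.93 and 9.55 at 24 h. It too had no overlap and rose 2.02-fold, by 1.01 ± 0.23 (adjusted p = 0.0199). The LAMB2 call ended without 24 h replicate 3 (adjusted p = 0.0552) or 24 h replicate 4 (adjusted p = 0.0559).

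LAMA5, the alpha chain of most laminin in lung, read 14.26, 14.42, 14.23 and 14.49 at 0 h and 14.65, 14.56, 14.83 and 14.86 at 24 h. The groups lay apart, but the difference of 0.37 ± 0.13 did not pass (adjusted p = 0.105). LAMB1, the beta chain of most other laminins, differed by 0.44 ± 0.20 (adjusted p = 0.238), was higher in 4 of 4 pairs and passed with the block (adjusted p = 0.0391). LAMC3, a gamma chain, differed by -0.46 ± 0.25 (adjusted p = 0.326) and was lower in 4 of 4 pairs. LAMA2, the alpha chain of muscle basement membrane, differed by -0.07 ± 0.13 (adjusted p = 0.828). LAMA1, LAMA4 and LAMB4 were detected on no array.

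Of 15 tested integrin genes, the alpha subunits ITGA5 and ITGA10 and the beta subunit ITGB4 were called higher (20%, all genes 4.72%). Limma called 0 lower (all genes 5.34%), with 0 at an unadjusted p under 0.05 (all genes 11.9%). The replicate block called 4 higher and 0 lower (all genes 7.99% and 8.98%). So few genes cannot show a lack of lower calls. Median differences were 0.25 for 9 alpha and 0.14 for 6 beta subunits. ITGB4, which pairs with ITGA6 to hold hemidesmosomes to laminin, read 9.70, 9.41, 10.21 and 10.22 at 0 h and 11.54, 11.15, 12.02 and 12.18 at 24 h. Each 24 h array lay above each 0 h array, and those of slide 2 were the highest at both times. ITGB4 rose 3.58-fold, by 1.84 ± 0.26 (adjusted p = 0.00155), and its dimmer tested probe by 2.09 ± 0.20 (adjusted p = 0.000168).

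ITGB4's partner ITGA6 read 8.04, 8.77, 9.07 and 8.98 at 0 h and 8.59, 8.997, 8.75 and 8.71 at 24 h. The groups overlapped widely, with a difference of 0.04 ± 0.22 (adjusted p = 0.938) and a 95% interval from -0.44 to 0.53. The dimmer ITGA6 probe differed by 0.40 ± 0.29 (adjusted p = 0.478). ITGA3, the alpha subunit of the other main laminin receptor of epithelia, read 12.46, 12.33, 12.61 and 12.64 at 0 h and 12.85, 12.82, 12.90 and 13.05 at 24 h. These groups did not overlap, but the difference of 0.39 ± 0.13 did not pass (adjusted p = 0.0831). With the replicate block it passed (adjusted p = 0.0339). The dimmer ITGA3 probe differed by 0.17 ± 0.17 (adjusted p = 0.623), with overlapping groups, and did not pass with the block (adjusted p = 0.465).

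ITGA5, the alpha subunit of the classical fibronectin receptor, read 10.27, 9.92, 10.28 and 9.79 at 0 h and 11.49, 11.05, 11.49 and 10.98 at 24 h. The arrays of the times lay apart, and replicates 1 and 3 were the higher ones at both times. ITGA5 rose 2.28-fold, by 1.19 ± 0.18 (adjusted p = 0.00216). FN1, which encodes fibronectin, differed by 0.38 ± 0.16 (adjusted p = 0.195) and passed with the block (adjusted p = 0.0425).

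ITGA10, a collagen-binding subunit known from cartilage, read 8.09, 7.97, 7.79 and 6.53 at 0 h and 9.80, 9.44, 9.60 and 9.29 at 24 h. All 24 h arrays were above all 0 h arrays, with 0 h replicate 4 the lowest. It rose 3.84-fold, by 1.94 ± 0.31 (adjusted p = 0.00296). ITGA1, which binds type IV collagen, read 7.50, 7.92, 6.78 and 5.44 at 0 h and 8.07, 8.20, 8.27 and 8.02 at 24 h. The groups lay apart, but the 0 h arrays spread widely (SD 1.08), and the probe was not detected on 1 of them. Its difference of 1.23 ± 0.43 did not pass (adjusted p = 0.11), was 0.43 on slide 1 and 2.03 on slide 2, and passed without 0 h replicate 2 (adjusted p = 0.0391).

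ITGB1, the beta partner of ITGA1, ITGA3, ITGA5 and ITGA10 and of many others, read 15.35, 15.32, 15.30 and 15.21 at 0 h and 15.24, 15.33, 15.22 and 15.25 at 24 h. The groups overlapped, and the difference was -0.03 ± 0.11 (adjusted p = 0.901, 95% interval -0.28 to 0.21). Its raw intensity ran from 25743 to 53064. Its dimmer tested probes differed by -0.08 and 0.07 and did not pass. ITGAV, the alpha subunit of vitronectin receptors, differed by 0.08 ± 0.22 (adjusted p = 0.883). Its beta partner ITGB5 differed by 0.31 ± 0.12 (adjusted p = 0.14), with no overlap between the times. The dimmer ITGB5 probe differed by 0.32 ± 0.15 (adjusted p = 0.237), and its groups overlapped.

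The remaining integrin subunits, some of them known mainly from blood cells or muscle, were not called or not tested. ITGAX, a subunit of myeloid cells, had a detected signal on 3 arrays of 0 h and 1 of 24 h, differed by -0.54 ± 0.30 (adjusted p = 0.336), and passed as lower without 0 h replicate 1 (adjusted p = 0.0252). ITGB2, the common beta subunit of leukocyte integrins, differed by -0.06 ± 0.21 (adjusted p = 0.905). ITGAE and ITGB7, which together bind E-cadherin, differed by -0.25 ± 0.14 and 0.31 ± 0.15 (adjusted p = 0.351 and 0.261). ITGA7, the laminin receptor subunit of muscle, and ITGB8 differed by 0.25 and -0.14 and did not pass. ITGA2B, the platelet subunit, ITGA8 and ITGB6 were detected on no array, and ITGA4, ITGAD and ITGB3 on too few to be tested.

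Among lysyl oxidases, LOX was the 1 gene called of 3 tested, as higher (33.3%, all genes 4.72%). It passed the filter through its 24 h arrays alone, so this count follows in part from the filter. Limma called 0 lower (all genes 5.34%), with 0 at an unadjusted p under 0.05 (all genes 11.9%) and 0 with the replicate block (all genes 8.98%). So few genes cannot show a lack of lower calls. LOX read 5.06, 4.87, 5.01 and 4.57 at 0 h, where it was detected on 0 of 4 arrays, and 6.71, 6.90, 7.10 and 6.65 at 24 h, where it was detected on 4 of 4. Since the 0 h level is only a bound, LOX was at least 2.56-fold higher at 24 h on the background-corrected scale used here (limma adjusted p = 4.92e-05). This compares the 24 h mean with the mean, per array, of the lowest detected signal. The fitted difference of LOX depended on how the background was treated. It was 1.96 ± 0.16 as tested, 1.37 with the authors' normalized values (adjusted p = 0.000178) and 0.91 with no background correction (adjusted p = 0.00041). The adjusted p ran from 4.92e-05 to 0.0304 over the settings that tested LOX, the highest being that of slide 2 alone. Each setting compares 24 h signal with 0 h values that were not detected, so these p-values add no separate support. LOX was not tested where detection on all 8 arrays was required.

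LOXL4 read 9.20, 9.27, 8.63 and 8.55 at 0 h and 8.93, 8.95, 9.45 and 9.03 at 24 h. The groups overlapped, and the difference was 0.18 ± 0.20 (adjusted p = 0.67), at -0.29 on slide 1 and 0.65 on slide 2. LOXL3 differed by -0.02 ± 0.28 (adjusted p = 0.984). LOXL1 and LOXL2 were detected on no array.

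**Figure D3:**
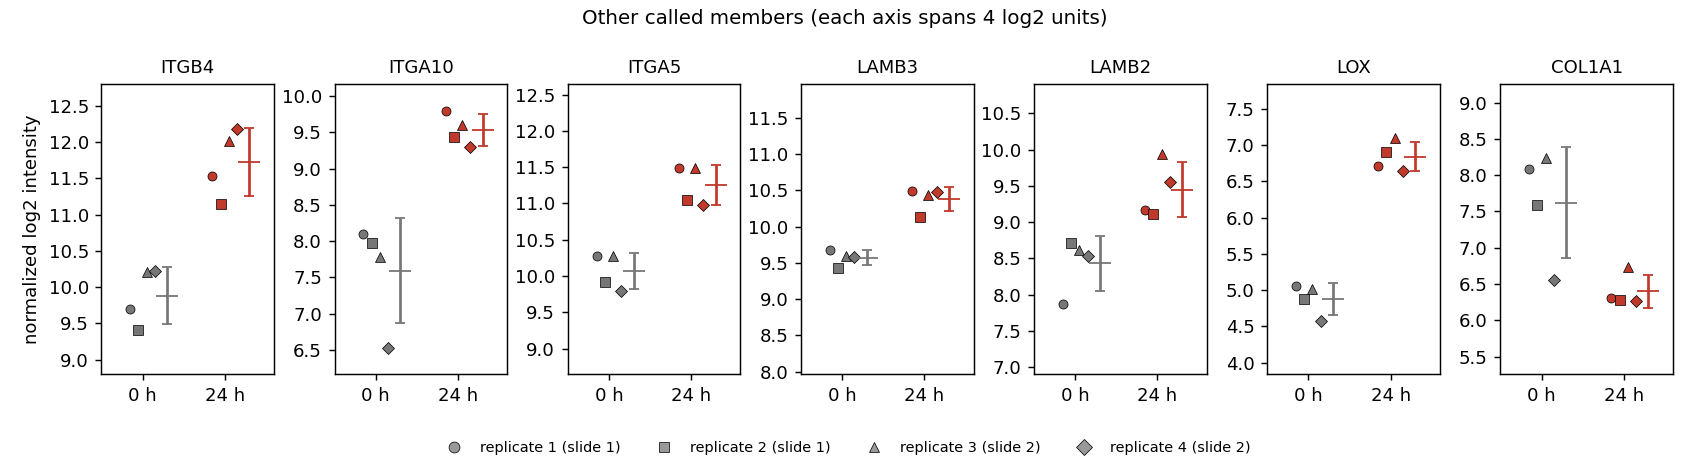
The y axis is normalized log2 intensity of the other 7 called genes at 0 h (grey) and 24 h (red), each point 1 array with its replicate as a symbol, and the bar the mean ± SD of 4 arrays. Panels have separate axes of the same span. COL1A1 is the 1 gene that is lower at 24 h and the 1 whose arrays overlap.

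The 2 slides gave called genes the same sign throughout. Genes were called on these same arrays, so the shared sign follows largely from the selection and is no replication. On slides 1 and 2, the differences were 0.85 and 1.51 for COL4A3, 1.07 and 1.20 for COL4A4 and 0.91 and 1.17 for COL4A6. They were -0.63 and -0.58 for COL4A1, 0.76 and 0.86 for LAMB3 and 0.86 and 1.17 for LAMB2. ITGA5 differed by 1.18 and 1.20, ITGA10 by 1.59 and 2.29, ITGB4 by 1.79 and 1.89 and LOX by 1.84 and 2.08. The LOX values rest on 0 h signal that was detected on no array, so their size depends on the background treatment. With 2 arrays a time, 5 members were called higher and 1 lower on slide 1, where 2.18% and 2.33% of all genes were. On slide 2, 4 members were called higher and 0 lower, where 1.96% and 1.71% of all genes were. Of the 40 tested genes not called, 18 had opposite signs on the slides.

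**Figure D4:**
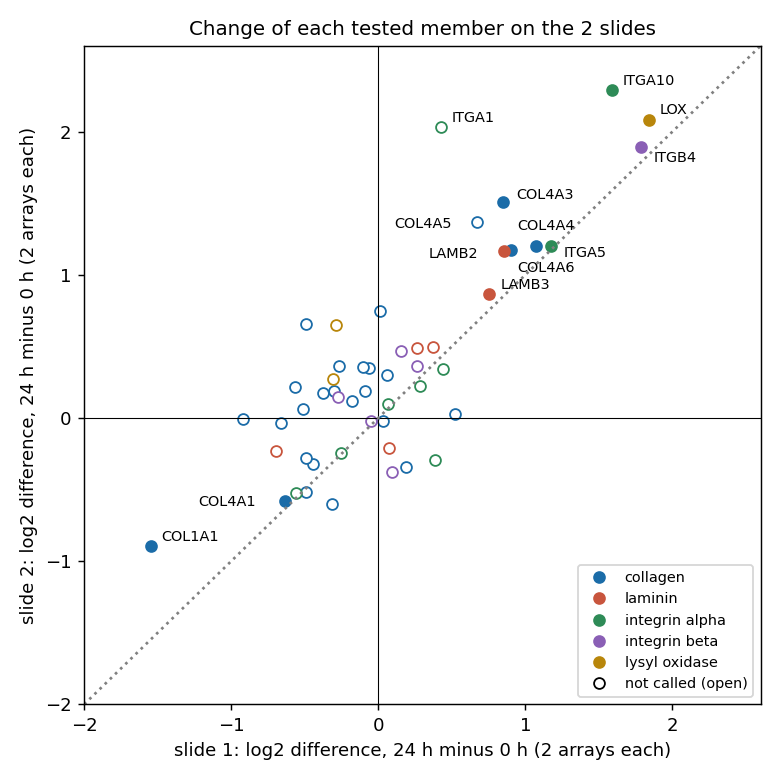
Each point is 1 tested gene, with its log2 difference (24 h minus 0 h) on slide 1 on the x axis and on slide 2 on the y axis, from 2 arrays at each time, and the dotted line marks equal values. Filled points, the called genes, all lie in the quadrants where both slides have the same sign, and ITGA1 is far from the line at 0.43 and 2.03. Calls used both slides, so this placing of the filled points follows largely from the selection.

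Other genes of the matrix and adhesion pathways were read in 6 lists. Limma called 0 of 18 tested collagen processing genes, with 4 higher and 0 lower at an unadjusted p under 0.05 (all genes 11% and 11.9%), and a list median of 0.07. P4HA3 and P4HA1, subunits of the enzymes that hydroxylate collagen prolines, differed by 0.69 ± 0.19 (adjusted p = 0.0512) and 0.66 ± 0.21 (adjusted p = 0.0824). Both passed with the replicate block (adjusted p = 0.0242 and 0.0124). BMP1, which trims procollagen, and PLOD3, a lysyl hydroxylase, differed by 0.37 and 0.31 and did not pass. Limma called 0 of 9 tested genes of other basement membrane proteins, with 1 at an unadjusted p under 0.05, 0 with the block and a median of 0.16. The smallest p there were those of FBLN1, NID2, FREM2 and FBLN2, at 0.33, 0.55, -0.32 and 0.25.

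With the block, 4 of 11 tested elastic fibre genes were higher and 0 lower (all genes 7.99% and 8.98%), and the list median was 0.20. The list went both ways, with 3 higher and 2 lower at an unadjusted p under 0.05 (all genes 11% and 11.9%). Without the block, limma called 2 higher and 0 lower (all genes 4.72% and 5.34%). They were FBLN5, which organises elastin, at 0.70 ± 0.13 (adjusted p = 0.00657) and the microfibril gene MFAP5 at 0.62 ± 0.14 (adjusted p = 0.0226), which was detected on 1 of 4 arrays at 0 h. With the authors' normalized values MFAP5 differed by 0.37 and was not called (adjusted p = 0.0634). ELN, elastin itself and a substrate of LOX, differed by 0.47 ± 0.15 (adjusted p = 0.0824) and passed with the block (adjusted p = 0.0244). LTBP4, which binds latent TGF-beta, differed by -0.46 and did not pass. Of 12 tested genes for other integrin ligands, the fibrinogen chains FGA, FGB and FGG were called higher, at 2.71, 2.48 and 2.02, and 0 were lower. With the block 5 were higher and 0 lower, and the all-gene shares are those given above. MFGE8, a milk fat protein that binds integrins, differed by 0.47 and did not pass. The median of that list was 0.26.

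Of 23 tested integrin adaptors, 2 were called higher and 2 lower (all genes 4.72% and 5.34%), with a median of 0.07. With the block 3 were higher and 2 lower (all genes 7.99% and 8.98%). LIMS2, which links integrin-linked kinase to the cytoskeleton, differed by 0.80 ± 0.13 (adjusted p = 0.00307) and PTK2, the focal adhesion kinase, by 0.47 ± 0.12 (adjusted p = 0.0317). VCL, which encodes the actin linker vinculin, differed by 0.43 ± 0.13 (adjusted p = 0.0742), was higher in 4 of 4 pairs, and passed with the block (adjusted p = 0.0257) and with the authors' values (adjusted p = 0.0498). The tyrosine kinase SRC differed by -0.56 ± 0.13 (adjusted p = 0.0189), and ITGB3BP, which despite its name is also a centromere protein, by -0.88 ± 0.12 (adjusted p = 0.00161). Of 5 tested other receptors of collagen and laminin, CD44, which also binds hyaluronan, was called lower at -0.45 ± 0.12 (adjusted p = 0.043, all genes 5.34% lower). BCAM, a receptor of LAMA5, differed by 0.33, SDC1 by 0.12 and DDR1, a collagen receptor kinase, by -0.05, and these did not pass. The median of the 5 was 0.06.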

How the data were processed

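Total RNA of 8 samples was measured, 1 array each. Of 25204 probes, the file of raw values deposited by the authors holds 1 linear intensity per array, the average of its beads, next to a standard error and a bead number (per the file headers). It also gives a deposited detection p-value per probe and array. A further deposited table has the authors' normalized log2 values of 22011 probes. The submitters' processing notes name limma with no version or steps, and no label or header describes scanner software or background treatment. The tested probes of members were read on 19 to 61 beads per array, and the number of arrays limits the precision.

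Intensities were background-corrected with nec of limma 3.58.1 (R 4.3.3) (normexp, offset 16, background estimated from detection p-values), and the 22011 probes were quantile normalized. Differences, SE and adjusted p come from lmFit and eBayes over all tested probes, two-sided, with Benjamini-Hochberg adjustment. The fit was tested on simulated data with independent noise per array. These lacked the pairs and slides of the real arrays, so that test does not cover them. Symbols are those of the platform annotation, with 19759 probes of 1 symbol and 2252 of none, updated through Entrez identifiers in a RefSeq table of GRCh38.p14. No member's symbol changed. Promoter windows are from RefSeq (GRCh38.p14).

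Same-numbered arrays deviated together from their group means (r = 0.463, 0.454, 0.367 and 0.454 for pairs 1 to 4, over tested probes), so the numbers of the labels were taken to pair the arrays. The main test did not use this pairing, and the run with the replicate block did. The rule for named genes takes every called member, up to 6 members of each family with the smallest p, other members by value, and up to 4 genes of each further list. FN1, VCL, ALDH3A1, NQO1 and KRT19 fall outside it and were named after their values were seen. Members and lists were chosen with earlier results of these data known. Alternatives were other background corrections and normalizations, other filters, blocks, single slides, another probe per gene and leaving out each array.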

Additional observations from a re-analysis of the deposited data

Results flagged for a closer look

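Within a group of 4 arrays, a value was singled out where its gap to the nearest other, divided by the range, exceeded Dixon's 95% critical value. In 54 groups of 27 genes this gave 4, where chance gives about 1 in 20 groups. COL4A3 at 0 h read 7.99 in replicate 4, against 8.95 to 9.05 in the others. COL1A1 at 24 h read 6.74 in replicate 3, against 6.26 to 6.30. LAMB3 at 24 h read 10.14 in replicate 2, against 10.43 to 10.49. ITGAX at 0 h read 4.71 in replicate 1, where it was near background, against 5.87 to 6.09.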

How the results depend on the processing

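No called gene changed sign under any alternative run, all of which reuse the arrays that gave the calls. The calls of members, higher and lower, were 9 and 2 with an offset of 50, with cyclic loess, with the authors' values and with the probe of smallest p per gene, as in the main test. Without background correction they were 11 and 2, and with the slide as a factor 11 and 3. With the replicate block they were 12 and 4, of which the lower ones were all collagens (4), and the calls added were COL4A5, LAMB1, ITGA3, COL4A2 and COL18A1. The block changed no other call of a member. With no filter 1 collagen was lower, as was 1 member in all. Testing only probes detected on all 8 arrays left LOX untested, so 0 lysyl oxidases were higher. On slide 1 alone 5 members were higher and 1, a collagen, lower, with 0 laminins higher. On slide 2 alone 4 were higher and 0 lower, with 0 collagens and 1 integrin higher. Fewer arrays were tested there. Leaving out 1 array at a time gave 8 to 10 members higher and 0 to 2 lower, which were 3 to 4 collagens higher and 0 to 2 lower, 1 to 2 laminins higher, 3 to 4 integrins higher and 0 to 1 lower (ITGAX), and 1 lysyl oxidase. The 2 lower calls lay near the threshold (limma adjusted p = 0.0333 for COL4A1 and 0.0385 for COL1A1). The loss of any 1 of 6 arrays ended that of COL4A1, and any 1 of 7 that of COL1A1. Over all 10964 tested genes, the block called 876 higher and 985 lower against 518 and 585 in the main test. Slide 1 alone called 239 and 255, and slide 2 alone 215 and 187. Without background correction the calls over all genes were 612 and 679, and with the slide as a factor 720 and 783. Leaving out 1 array gave 354 to 490 higher and 406 to 539 lower over all genes. For genes not called, 55 values under single alternatives had the other sign, and the median of collagens, -0.03, took either sign. Probes near background, such as LOX at 0 h, have only bounds, and their differences depend on the background treatment.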
